A study of Mus musculus with 2 samples.

Results

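Long intergenic noncoding RNAs (lincRNAs) were described in the duodenum of the mouse, where the small intestine begins. The genes described are those typed lincRNA in the GENCODE M21 annotation and selected on their TPM (a level scaled to transcript length and library total), which had to be at least 2 in each of 2 libraries. The deposited tables hold 43346 gene rows, of which 2777 were of this type. The limit was reached by 42 of them, and the 39 left after setting aside Malat1, Neat1 and Gm42418 are the members. Their levels in these libraries are therefore a description and not a finding. Replicate 1 and replicate 2 are libraries of the same group, made from duodenum of C57BL/6J mice 8 weeks old. The tissue is described as pooled from males and females. Ribosomal RNA had been removed, RNA with poly(A) tails and more than 200 nucleotides was kept, and sequencing preserved the strand. Both libraries carry 1 donor entry and different tissue entries, and nothing in the labels says that they came from separate animals, so the difference between them may be technical in part. No condition was compared.

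A lincRNA is transcribed by RNA polymerase II from its own locus, is usually capped, spliced and polyadenylated like an mRNA, and carries no long conserved reading frame. Some act through the RNA, for example by binding proteins or microRNAs, some mainly carry small RNAs in their introns, and for others the act of transcription or the DNA of the locus is what matters. The type is an annotation, and reading frames or repeated copies have since been recognised in several loci that once carried it.

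The libraries were of like depth, with 44977004 expected counts (fragments assigned to a gene) in replicate 1 and 45438504 in replicate 2, and ERCC spike-ins took 1.35% and 1.36% of them. They stood apart in tissue make-up. All 14 exocrine pancreas markers were at least 2-fold higher in replicate 1 (summed level 94870 TPM in replicate 1, 1618 TPM in replicate 2), as were all 10 stomach and Brunner's gland markers (24930 and 89.9 TPM) and 3 of 4 islet markers (601 and 2.44 TPM, with Ins1 and Ppy at 0 TPM in replicate 2). Of 10 enterocyte markers 1 was higher in replicate 1 and 6 in replicate 2, and all 10 reached 2 TPM in both. All 5 fat cell markers (13.7 and 383 TPM, with Retn at 0 TPM in replicate 1) and 4 of 6 T lymphocyte markers (259 and 707 TPM) were higher in replicate 2. Most of the T lymphocyte sums was 1 gene, Ccl5, with 244 TPM in replicate 1 and 673 TPM in replicate 2. The part of these cell types in the ratios below was not tested. In bulk tissue, fewer cells of a type and less RNA per cell cannot be told apart.

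Few lincRNA genes were detected. Of the 2777 in the tables, 2250 had 0 counts in both libraries, 228 had counts in 1 library only, and 257 had counts in both but stayed under the limit in at least 1. Of the genes that fell short, 18 reached the limit in replicate 1 alone and 4 in replicate 2 alone. Members averaged 2.69 to 2814 TPM over the 2 libraries with a median of 7.17 TPM, and 23 lay under 10 TPM, 10 from 10 to 100 TPM and 6 above. The 9254 protein-coding genes of the same limit had a median of 16.8 TPM. Members together took 0.321% of all TPM in replicate 1 and 0.475% in replicate 2. Most of that was 1 gene, Gm26917, with 66.8% of the members' TPM in replicate 1 and 73.4% in replicate 2, and without it the other 38 summed to 1065 and 1264 TPM.

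**Figure D1:**
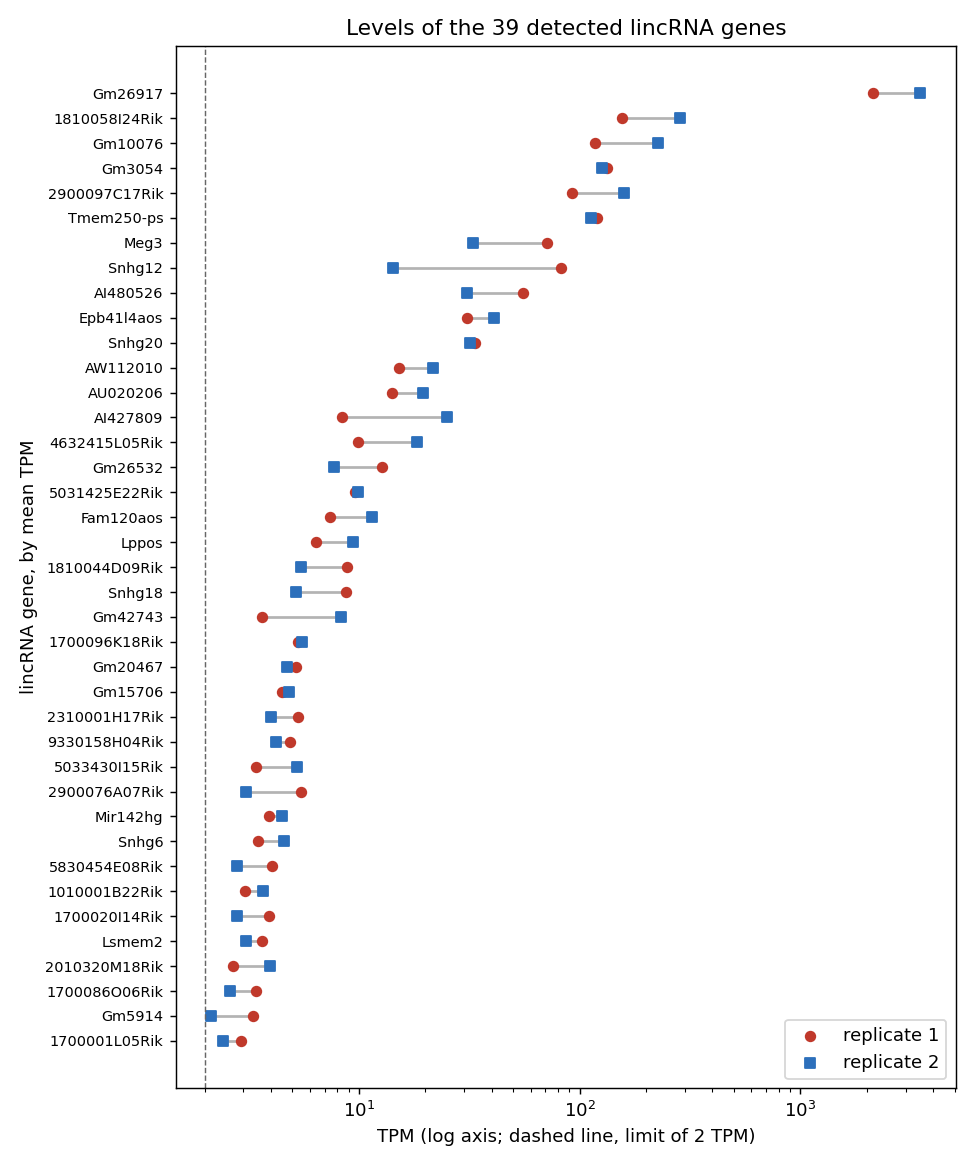
TPM on a log axis for each of the 39 lincRNA genes in replicate 1 (circles) and replicate 2 (squares), ordered by mean TPM, with the limit of 2 TPM as a dashed line. Gm26917 stands alone at the right in both libraries, and the widest gaps belong to Snhg12, AI427809, Meg3 and Gm42743.

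The genes around the limit show how little separates a member from a gene left out. Just inside lay Gm5914 at 3.32 TPM in replicate 1 against 2.15 TPM in replicate 2, 1700001L05Rik at 2.94 and 2.43 TPM, and 1700086O06Rik at 3.42 and 2.60 TPM. Just outside lay Mirg at 3.50 and 1.93 TPM, 4933404O12Rik at 1.92 and 5.68 TPM, and Gm28592 at 2.08 and 1.91 TPM. Counts were small at this level, as with Gm5914, which rested on 20 counts in replicate 1 and 12 in replicate 2.

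Several of the most abundant members are not plain lincRNA loci. Gm26917 (chr17:39843013-39846341, plus strand, mm10 as all positions here) had 2143 TPM in replicate 1 against 3486 TPM in replicate 2, and its leading transcript is 1 exon of 3329 bases with 69.1% GC. GENCODE M21 places a gene typed rRNA, CT010467.1, on the opposite strand 11 bases past its end, and Gm42418, which was set aside above and had 16138 and 15635 TPM, 616 bases past its end. Its leading transcript has no polyadenylation signal near the end, as shown further on. The ratio between the libraries, replicate 1 over replicate 2, was 0.630-fold for Gm26917 (95% interval 0.627 to 0.634), and Gm42418 next to it had a log2 ratio of −0.11.

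The next places were held by loci that RefSeq types otherwise or that have near-identical copies. 1810058I24Rik (chr6:35252654-35263496, plus strand), which RefSeq types as protein coding and lists under the synonyms Mm47 and Stmp1, a small mitochondrial protein, had 155 TPM in replicate 1 against 285 TPM in replicate 2. Gm10076 (chr14:105681828-105682211, plus strand), a pseudogene in RefSeq, had 117 and 225 TPM. Its single exon of 384 bases is matched over 99.7% of its length by the transcript of Rpl41, a protein of the large ribosomal subunit, at 99.5% identity. Rpl41 itself had 1843 TPM in replicate 1 against 1441 TPM in replicate 2, so the sharing of reads between the copies makes the level of Gm10076 uncertain.

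Tmem250-ps, typed protein coding in RefSeq in spite of its pseudogene name, had 120 TPM in replicate 1 against 113 TPM in replicate 2. Its counts, 8434 and 10120, were after scaling 1.40-fold higher in replicate 2. Besides Tmem250-ps, 9330158H04Rik and Mir142hg had TPM values and scaled counts in opposite order. TPM is also scaled to transcript length and to another total. Gm42743 had 3.64 and 8.27 TPM, and its leading transcript is matched over its whole length at 100% identity by the histone gene Hist2h2bb, which overlaps it on the same strand. Hist2h2bb had no gene row of its own, so the reads of Gm42743 cannot be told apart from those of the histone gene. Lsmem2, a membrane protein gene in RefSeq, had 3.65 and 3.08 TPM, and 4632415L05Rik, a transcribed pseudogene there, had 9.96 and 18.3 TPM. In all, RefSeq types 24 of the 39 as lncRNA, 3 as protein coding, 1 as pseudogene and 1 as transcribed pseudogene. For the other 10 no entry was matched by gene identifier or symbol, so an entry under another name would be missed. These are the limits of reading the set as noncoding RNA.

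After Gm26917, Gm3054 was the most abundant member for which the search of M21 transcripts found no near-identical copy and RefSeq gave no other type. No RefSeq entry was matched to either gene, and copies outside annotated transcripts were not searched. Gm3054 had 133 TPM in replicate 1 against 126 TPM in replicate 2. It is a short transcript of 265 bases (chr5:137154029-137166070, minus strand) that ends 4707 bases upstream of Muc3, a membrane-bound mucin of the gut epithelium, on the same strand. Muc3 had 86.9 TPM in replicate 1 against 275 TPM in replicate 2, the opposite order. The close TPM values of Gm3054 rest on 419 and 260 counts.

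2900097C17Rik, the mouse counterpart of NORAD, had 92.2 TPM in replicate 1 against 158 TPM in replicate 2. NORAD is a cytoplasmic RNA known for binding many copies of the Pumilio proteins, repressors of mRNA translation and stability, and for its part in keeping chromosomes stable. The gene is 1 exon (chr2:156388065-156392979, minus strand). Its M21 transcript of 4915 bases holds 11 copies of the Pumilio motif TGTANATA on the transcribed strand, where N is any base. Of 3828 lincRNA transcripts of at least 1000 bases in M21 it is the only one with as many, and 2987 have none. The most closely spaced copies begin at bases 2442 and 2451, and the stretch at chr2:156390512-156390548 on the minus strand is shown with both motifs in capitals.
2900097C17Rik, 37 bases around a pair of motifs: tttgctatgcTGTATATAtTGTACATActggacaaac
The sequence was taken from the GENCODE M21 transcripts, and a match describes letters and not binding. The deposited tables give this transcript 1149 bases, so the TPM of 2900097C17Rik was computed on a shorter model than the one searched. A further limit is Gm7292, a lincRNA with 0.43 TPM in replicate 1 against 0.50 TPM in replicate 2, whose transcript matches 51.6% of the length at 99.2% identity.

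The next group of members carries small RNAs within the gene. Small nucleolar RNAs (snoRNAs) and the related scaRNAs guide chemical changes of ribosomal and spliceosomal RNA, and microRNAs (miRNAs) repress mRNAs through a seed of bases 2 to 8. In vertebrates most snoRNAs are cut from introns, and the spliced host RNA is what a poly(A) library reads. 8 members hold 15 annotated small RNA genes on the same strand, namely 8 snoRNA, 5 miRNA and 2 scaRNA entries. The 11 of these with a row in the tables were listed at 0 counts in both libraries. Their effective length in replicate 1 was 0 for all except the scaRNA Gm26083, at 8.22 bases, so that library could hardly have counted them. That of replicate 2 was not looked up. The 8 hosts summed to 239 TPM in replicate 1 against 137 TPM in replicate 2, and the 31 other members to 2969 and 4613 TPM. Of the hosts 6 had a higher scaled count in replicate 1 and 2 in replicate 2, with a median log2 ratio of 0.31 in place of −0.20 for the other 31.

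Snhg12 (chr4:132308623-132311024, plus strand) holds Snora16a in 2 annotated entries, Snora44, Snora61 and Snord99, the most of any member. It had 82.0 TPM and 679 counts in replicate 1, and 14.3 TPM and 140 counts in replicate 2, and was after scaling 4.16-fold higher in replicate 1 (95% interval 3.46 to 5.02), which was the largest ratio among the members in either direction. Its nearest coding gene Trnau1ap, which lies tail to tail 739 bases away and serves selenocysteine incorporation, had 12.31 TPM in replicate 1 against 11.96 TPM in replicate 2.

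The other snoRNA hosts were closer between the libraries. Epb41l4aos (1 snoRNA, Gm23639) had 31.0 TPM in replicate 1 against 41.0 TPM in replicate 2, Snhg20 (the scaRNA Gm26083 and Mir6516) 33.5 and 31.7 TPM, Snhg18 (Snord123) 8.71 and 5.17 TPM, and Snhg6 (Snord87) 3.51 and 4.56 TPM. None of these 4 reached 2-fold. Hosts that GENCODE types otherwise, looked up after the values of Snhg12 were seen, give a wider view. Of 9 tested genes named Snhg with a number, members included, 4 were at least 2-fold higher in replicate 1 and 0 in replicate 2, where 9.36% and 8.85% of all genes tested were. Besides Snhg12 they were Snhg3 (4.78 TPM in replicate 1, 0.83 TPM in replicate 2), Snhg11 (2.15 and 0.53 TPM) and Snhg17 (32.3 and 10.8 TPM). Snhg15 (14.1 and 11.2 TPM) and Snhg5 (3.52 and 3.31 TPM) were not called, and neither was Gas5 (6.26 and 7.61 TPM, but 173 and 124 counts), another snoRNA host. Zfas1, a host whose name falls outside the pattern, was also not called. It had 6.74 TPM in replicate 1 against 9.92 TPM in replicate 2, with a log2 ratio of −0.24.

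Many snoRNA hosts begin with a run of pyrimidines, the 5′ terminal oligopyrimidine tract known from mRNAs of ribosomal proteins. The first 20 bases of the leading transcripts of 3 hosts (GENCODE M21) are shown with the opening run of C and T in capitals.
Snhg12, chromosome 4, plus strand: CTTTCTCgcttcatccgcgg
Snhg6, chromosome 1, minus strand: TTTCTCggcagcgccgtaga
Snhg18, chromosome 15, minus strand: TCCTCTagccccgcctcttc
An opening run of at least 5 pyrimidines was present in 7 of the 39 leading transcripts, these 3 and those of Epb41l4aos, Lppos, 1810044D09Rik and Gm20467, of which the last 3 hold no small RNA. It was present in 425 of 9101 lincRNA transcripts in M21 (4.67%). Snhg20 opens with a G at its annotated start. Annotated starts can be off by a few bases, which such a run depends on.

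The miRNAs held by members are shown by their mature sequence (RefSeq, GRCm38.p6) with the seed in capitals, since the seed is what defines their targets. Meg3 holds Mir1906-1 and Mir770, Snhg20 holds Mir6516, 2900076A07Rik holds Mir1839, and Mir142hg holds Mir142.
mmu-miR-142a-5p: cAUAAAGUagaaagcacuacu
mmu-miR-142a-3p: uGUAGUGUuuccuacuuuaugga
mmu-miR-770-5p: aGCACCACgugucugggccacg
mmu-miR-770-3p: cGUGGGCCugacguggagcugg
mmu-miR-1906: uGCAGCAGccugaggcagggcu
mmu-miR-6516-5p: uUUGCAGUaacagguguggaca
mmu-miR-6516-3p: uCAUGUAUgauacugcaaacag
mmu-miR-1839-5p: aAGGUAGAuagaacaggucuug
The 8 arms have 8 different seeds. Mir142hg, the precursor of the miR-142 arms that mark blood cells, had 3.93 TPM in replicate 1 against 4.51 TPM in replicate 2, on 13 and 10 counts. Its scaled counts were 1.11-fold higher in replicate 1, a ratio that has a 95% interval of 0.451 to 2.84, so a 2-fold difference either way lies within its counting error. T lymphocyte markers, which stand for 1 class of blood cell, summed to 259 and 707 TPM, most of it from Ccl5.

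Meg3 (chr12:109541001-109571726, plus strand), the maternally expressed RNA of the imprinted Dlk1-Dio3 domain, had 71.4 TPM and 5179 counts in replicate 1, and 33.0 TPM and 1814 counts in replicate 2. Scaled counts were 2.45-fold higher in replicate 1, with a 95% interval of 2.32 to 2.58. This domain expresses further noncoding RNAs from the maternal chromosome downstream of Meg3. Rian, typed processed transcript, had 8.5 TPM in replicate 1 against 3.13 TPM in replicate 2, a 2.32-fold ratio (95% interval 1.85 to 2.92). Mirg, the lincRNA just outside the limit, had 3.50 and 1.93 TPM, a 1.63-fold ratio (95% interval 1.13 to 2.36). All 3 RNAs thus had the higher value in replicate 1, beside the pancreas, stomach and islet markers. Of the smooth muscle markers 2 of 6 were also called higher in replicate 1, and of neuron and glia markers 1 of 5. The part of any cell type in these ratios was not tested. The paternally expressed Rtl1, the nearest coding gene of Meg3, had 0 counts in both libraries.

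Most of the 39 members stayed under 2-fold between the libraries. Counts were scaled with TMM, a method that sets the bulk of genes to equal levels, and a gene was called when the scaled ratio with 0.5 CPM (counts scaled to library size) added on each side reached 2-fold. Of the 39 members 2 were called higher in replicate 1 (5.13%), in a background of 9.36% among 15921 genes tested and 4.94% among 9741 genes of any type with the same TPM limit (4.4% among its protein-coding genes). 1 was called higher in replicate 2 (2.56%), in a background of 8.85% among all genes tested and 10.5% among those of the same limit (10.3% among its protein-coding genes). In either direction together the shares were 7.69% of members, 14.7% of protein-coding genes of the same limit and 18.2% of all genes tested. The median log2 ratio of the members was −0.14 (0.06 when scaled to the ERCC spike-ins) and that of protein-coding genes of the same limit −0.11, in a table whose median over all genes tested was 0.04. Members differed by a median of 0.51 on the log2 scale without regard to direction, and those coding genes by 0.42. Across the 39 genes Pearson's r between the libraries was 0.949, taken over log2(TPM + 1), and Spearman's rho was 0.894. For the 9254 coding genes these were 0.911 and 0.910. The points are genes of the same pair of libraries and not replicates. A ratio of 2 libraries compares those libraries only, and the intervals cover counting error alone.

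**Figure D2:**
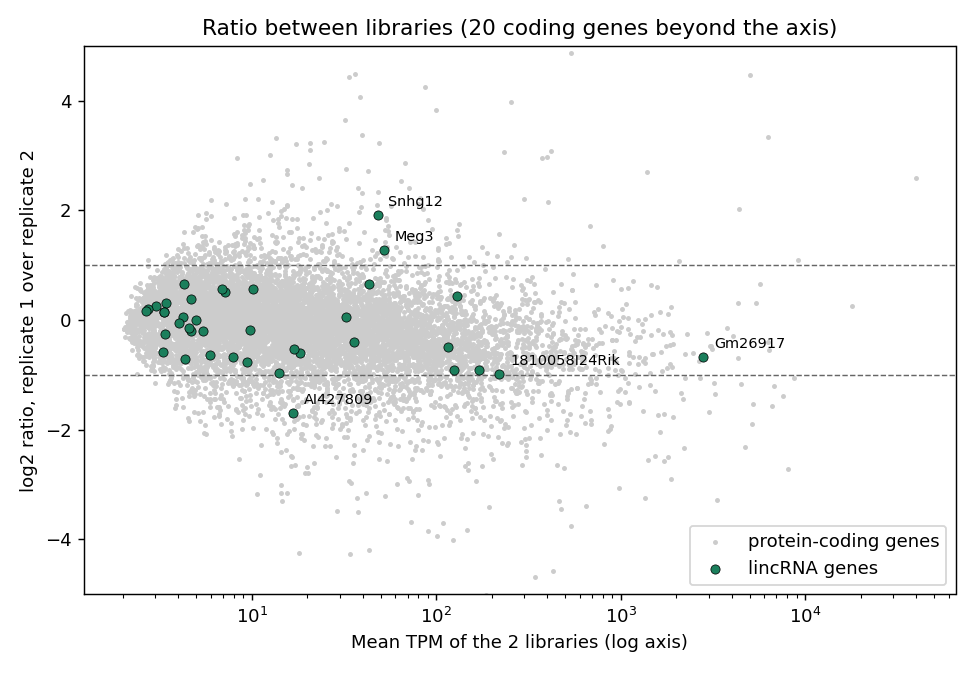
Log2 ratio of scaled counts, replicate 1 over replicate 2, against mean TPM on a log axis for the 39 lincRNA genes (green) and the protein-coding genes of the same TPM limit (grey), with dashed lines at 2-fold. Snhg12 and Meg3 lie above the upper line, AI427809 lies below the lower line and 1810058I24Rik touches it, while 20 coding genes fall beyond the axis.

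The member called in the other direction was AI427809 (chr4:53261356-53270232, minus strand), a locus of no known function. It had 8.41 TPM and 635 counts in replicate 1, and 25.1 TPM and 1808 counts in replicate 2, and scaled counts were 3.32-fold higher in replicate 2 (95% interval 3.03 to 3.64). Transcript tables give all of its TPM to 1 transcript of 4 in both libraries. Its nearest coding gene is Abca1, the cholesterol exporter, 101461 bases downstream on the same strand, which had 0.46 TPM in replicate 1 against 1.36 TPM in replicate 2. Both genes were lower in replicate 1, at 0.301-fold for AI427809 and 0.301-fold for Abca1 (95% interval 0.254 to 0.356).

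A group of members lay close under 2-fold, all with the higher value in replicate 2. 1810058I24Rik lay just under 2-fold (1.997-fold, log2 ratio −0.99). 4632415L05Rik was 2.02-fold higher there, and with 0.5 CPM added it fell just short as well, with a log2 ratio of −0.97. Gm42743 (1.94-fold), 5033430I15Rik (1.90-fold), Gm10076 (1.90-fold) and 2900097C17Rik (1.89-fold) followed. With the same sign, Fam120aos was 1.73-fold and Lppos 1.64-fold higher in replicate 2. The members with the largest ratios towards replicate 1 that were not called were 2900076A07Rik (1.77-fold, 5.46 TPM in replicate 1 against 3.08 TPM in replicate 2) and AI480526 (1.60-fold, 55.3 and 30.8 TPM). AW112010, an RNA induced in mouse immune cells that also encodes a short protein, had 15.1 TPM in replicate 1 against 21.6 TPM in replicate 2 (1.55-fold higher in replicate 2), below the limit, beside T lymphocyte markers of which 4 of 6 were called.

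Most members sit close to a protein-coding gene. The nearest one lay within 5 kb for 26 of 39 and within 2000 bases for 20, and the median gap was 1810 bases. Among the 26, 9 pairs stood head to head, 7 tail to tail, 5 overlapped on opposite strands, 3 had the coding gene downstream and 1 upstream on the same strand, and 1 overlapped on the same strand. In 22 of the 26 pairs the coding gene had enough counts for a ratio. The member and its neighbour had a ratio of the same sign in 12 of these 22 pairs, with a Spearman correlation of −0.015 between the ratios and of −0.071 between the levels, described across pairs of genes. A sign was counted however small the ratio, so ratios within counting error enter this count and those by arrangement below. The member had the higher mean TPM in 9 of the 22.

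Head-to-head pairs, which can share a stretch of promoter, held 6 same-signed pairs of 9, and the other arrangements 6 of 13. The closest was 2010320M18Rik, 102 bases from Pik3r2, a regulatory subunit of phosphoinositide 3-kinase. It had 2.68 TPM in replicate 1 against 3.96 TPM in replicate 2, while Pik3r2 had 223 and 367 TPM. Snhg18 and Sema5a, a semaphorin, start 148 bases apart and had the reverse balance, with 8.71 and 5.17 TPM for Snhg18 and 2.26 and 1.25 TPM for Sema5a. AI480526 (55.3 TPM in replicate 1, 30.8 TPM in replicate 2) starts 527 bases from Setd1b (11.97 and 9.38 TPM), a histone H3 lysine methyltransferase.

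In 3 head-to-head pairs the ratios had opposite signs. Gm20467 had 5.22 TPM in replicate 1 against 4.75 TPM in replicate 2, while Nkx2-3, a homeobox factor of gut mesenchyme that starts 1700 bases away, had 8.72 and 27.2 TPM. Fam120aos had 7.39 and 11.5 TPM, and Fam120a, 270 bases away, 56.7 and 40.9 TPM. 5031425E22Rik had 9.62 and 9.89 TPM, and Kmt2e, 172 bases away and of the lysine methyltransferase family, 9.90 and 5.55 TPM. In 2 further pairs both genes had the lower scaled count in replicate 1. 5033430I15Rik, 245 bases from Atxn1 (4.48 and 6.65 TPM), had 3.41 and 5.26 TPM, and 1010001B22Rik, 123 bases from Zfp932 (0.18 and 0.20 TPM), had 3.05 and 3.69 TPM.

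Of the 22 neighbours 4 were at least 2-fold apart, in a background of 18.2% of all genes tested, and 0 of the 4 members beside them were, where 7.69% of all members are. They were Muc3 and Nkx2-3, both lower in replicate 1, and Chrm2 and Epb41l4a, both higher in replicate 1. 9330158H04Rik had 4.89 TPM in replicate 1 against 4.22 TPM in replicate 2, and Chrm2, the muscarinic receptor of smooth muscle that overlaps it on the opposite strand, had 1.66 and 0.25 TPM. Epb41l4a, a membrane skeleton gene, had 0.89 and 0.31 TPM. The sources used here do not say whether the counting used strand. For the 5 members that overlap a coding gene on the opposite strand (Lppos, 9330158H04Rik, Snhg6, 1700086O06Rik and Gm5914) reads of the overlap cannot be told apart with certainty.

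**Figure D3:**
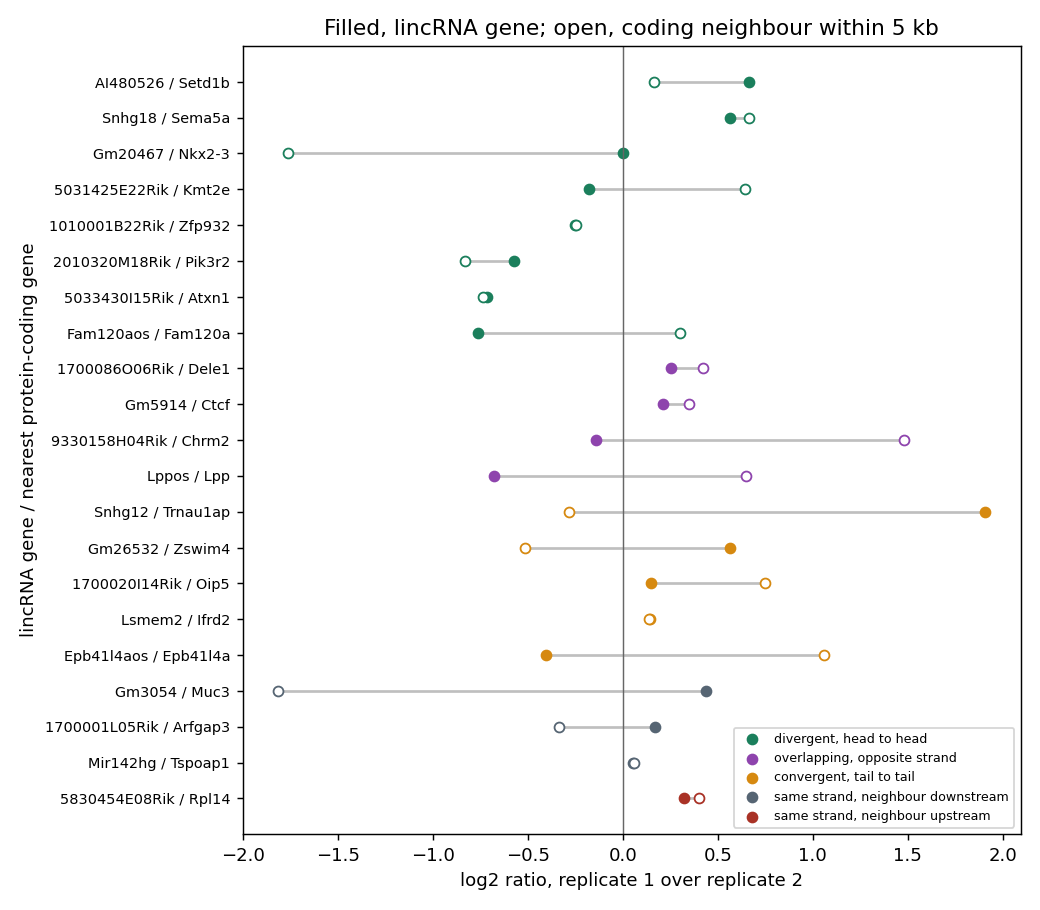
Log2 ratio, replicate 1 over replicate 2, of each lincRNA gene (filled) and its nearest protein-coding gene (open) for 21 of the 22 pairs within 5 kb whose coding gene was tested, coloured by arrangement. Filled and open points lie on the same side of 0 in 11 of the 21 pairs shown, and the longest gaps belong to Gm3054 and Muc3, Snhg12 and Trnau1ap, and Gm20467 and Nkx2-3.

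Promoter sequences of RefSeq (GRCm38.p6, 250 bases before to 50 after the start) were matched by symbol for 23 members. They held a median of 24 CG dinucleotides, and all 32851 such promoters a median of 7. The letters TATAAA on either strand were present in 1 of the 23 (4.35%), that of Meg3, and in 13.6% of all. The 32851 were not chosen by level in these libraries, and promoters of coding genes of the same TPM limit were not compared. Whether the differences belong to lincRNA genes or to expressed genes in general was not tested. In 3 promoters the annotated start of the head-to-head coding gene falls inside the window. That of Snhg18 (chr15:32244613-32244912, minus strand) is shown because it holds the start of Sema5a, with its 31 CG dinucleotides in capitals, the mark of a CpG island promoter.
Snhg18 promoter: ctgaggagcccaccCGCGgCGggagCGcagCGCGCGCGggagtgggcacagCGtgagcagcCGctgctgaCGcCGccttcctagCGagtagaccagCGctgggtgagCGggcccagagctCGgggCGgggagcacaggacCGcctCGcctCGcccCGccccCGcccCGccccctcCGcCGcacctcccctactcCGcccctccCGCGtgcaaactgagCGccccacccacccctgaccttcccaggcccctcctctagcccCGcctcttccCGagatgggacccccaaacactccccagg
The windows of 2010320M18Rik, with the start of Pik3r2, and of Fam120aos, with that of Fam120a, held 43 and 54 CG dinucleotides. At the low end, the window of AW112010 held 1. For 8 of the 23 the RefSeq and GENCODE starts lie more than 100 bases apart, so a window can miss the start the reads came from.

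Transcript tables split each gene's TPM among its transcripts, as isoform percent. 21 members had at least 2 transcripts in the tables, and in 16 of these the same transcript led in both libraries. In 6 the leading transcript held at least 90% in both, among them 2900097C17Rik, AI427809, Snhg20 and 1810058I24Rik. Snhg12 kept its leading transcript, of 2 exons and 364 bases in the tables, with 91.2% in replicate 1 and 72.4% in replicate 2. Meg3, with 11 transcripts, was the most divided. The transcript that led in replicate 1, of 10 exons and 1896 bases, held 31.1% there and 13.0% in replicate 2, where a transcript of 5 exons and 695 bases led with 18.8% (17.4% in replicate 1). 5033430I15Rik had 57.2% in replicate 1 and 26.7% in replicate 2 for its transcript of 523 bases, on 59 and 96 counts of the gene. Gm26917, 1700020I14Rik and Gm5914 were the other members whose leading transcript differed. These shares are estimates of the authors' quantifier and have no error here.

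**Figure D4:**
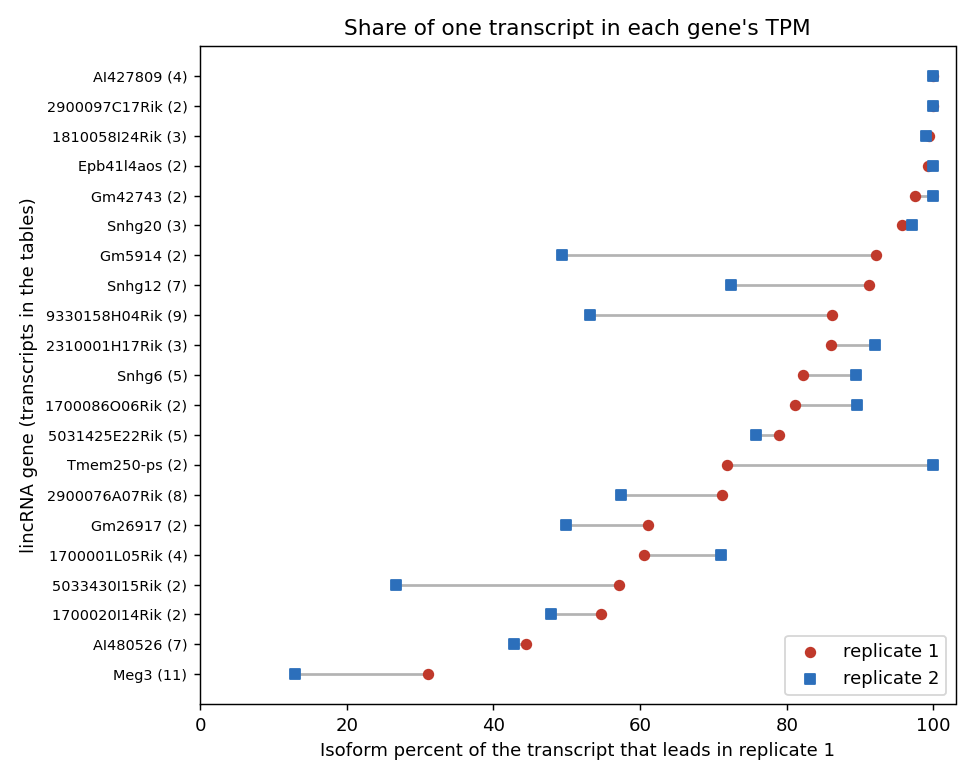
Isoform percent, in replicate 1 (circles) and replicate 2 (squares), of the transcript that led in replicate 1, for the 21 lincRNA genes with at least 2 transcripts in the tables (their number in parentheses). AI427809 and 2900097C17Rik sit at 100% in both libraries, and Meg3 sits lowest in both.

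The split matters for 1700020I14Rik, also called Oip5os1 or Cyrano (chr2:119594297-119607502, plus strand), an RNA known for an extended site through which it brings about the decay of miR-7. The gene had 3.91 TPM in replicate 1 against 2.82 TPM in replicate 2, on 693 and 533 counts. Its transcript of 8300 bases held 45.3% of this in replicate 1 and 52.1% in replicate 2, and the shorter one, of 1381 bases, held 54.7% and 47.9%. A search for the match to the miR-7a-5p seed found 2 in the long transcript and 1 in the short one. The miRNA (RefSeq, GRCm38.p6) is shown with its seed in capitals, followed by both windows of 23 bases with the seed match in capitals.
mmu-miR-7a-5p: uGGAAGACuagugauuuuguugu
1700020I14Rik, chr2:119602139-119602161, plus strand, long transcript: aacaaaatcaccaatGTCTTCCa
1700020I14Rik, chr2:119599949-119599971, plus strand, both transcripts: ggttttttttttaatGTCTTCCa
The match that begins at base 2952 of the long transcript is complementary at 13 of 23 bases without a gap, and the other at 9 of 23. Beyond the seed, the first window also holds 11 bases in a row that complement the miRNA's 3′ part once a gap is allowed, and the other window 3. The short transcript ends before the first window.

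The annotated ends of the members were set beside those of other lincRNA and coding genes. The hexamers AATAAA or ATTAAA, the signals that direct cleavage and polyadenylation, lay within the last 50 bases of the leading transcript in 29 of 39 members (74.4%, with AATAAA in 22 and ATTAAA in 7). They did so in 1008 of 2724 other lincRNA genes (37.0%) and in 6115 of 9182 coding genes of the same TPM limit (66.6%). Most of the other lincRNA genes had 0 counts in both libraries (2250 of all 2777). Where all transcripts of a gene had 0 TPM, the first by identifier was taken, so the 37.0% rests largely on an arbitrary choice. The signal began a median of 20 bases before the end in members. The ends of 4 members with a signal (capitals) and 2 abundant members without one are shown as their last 40 bases in GENCODE M21, since a poly(A) library captures what follows them.
Snhg12, chr4:132310983-132311022, plus strand: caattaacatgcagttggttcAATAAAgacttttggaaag
Meg3, chr12:109571682-109571721, plus strand: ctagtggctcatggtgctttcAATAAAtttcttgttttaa
Snhg20, chr11:117078916-117078955, plus strand: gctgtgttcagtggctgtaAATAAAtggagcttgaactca
Mir142hg, chr11:87757231-87757270, plus strand: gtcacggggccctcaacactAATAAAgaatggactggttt
Gm26917, chr17:39846302-39846341, plus strand: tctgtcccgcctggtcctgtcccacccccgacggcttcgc
Gm3054, chr5:137154029-137154068, minus strand: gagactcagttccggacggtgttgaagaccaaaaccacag
Gm26917 and Gm3054 are among the 10 members with no such hexamer, as are AU020206, AI427809 and Gm42743, whose leading transcript has the sequence of the histone gene Hist2h2bb. For the others the annotated end may lie short of the true one.

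A leading transcript of 1 exon was found in 10 of 39 members (25.6%), in 6.65% of the other lincRNA genes and in 2.85% of those coding genes. The 10 include Gm10076, 4632415L05Rik, Gm42743 and 2900097C17Rik, which have another RefSeq type or a near-identical match in another gene. Leading transcripts of the members had a median length of 770 bases and a median GC content of 53.2%. The other lincRNA genes had a median of 826 bases and 45.6%, and the coding genes 2097 bases and 53.6%. The members lay on 18 chromosomes, with 5 each on chromosomes 5 and 6. No test was made of these shares, and the rule's TPM limit acts on length-scaled values.

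**Figure D5:**
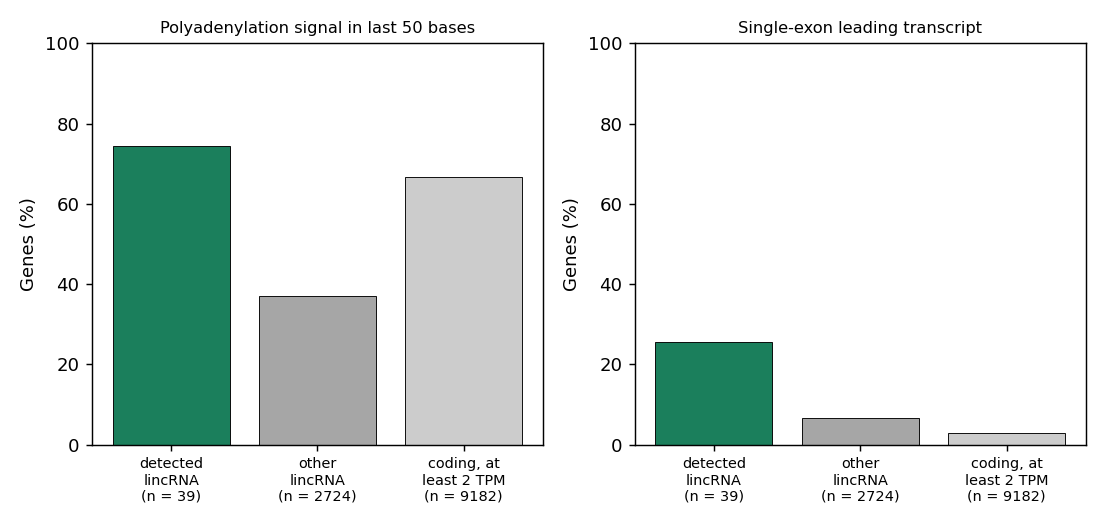
Percentage of genes whose leading transcript has AATAAA or ATTAAA in its last 50 bases (left) and percentage with a leading transcript of 1 exon (right), for detected lincRNA genes, other lincRNA genes and protein-coding genes of at least 2 TPM in both libraries. The detected lincRNA genes have the highest bar in each panel, at 74.4% and 25.6%.

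Among long noncoding RNAs that are well studied elsewhere, few were members. Matched by GENCODE symbol, 56 of 75 names on the list were in the tables, 28 of them typed lincRNA, and 8 were members. A gene listed under another name is missed by such a match. The member 1700020I14Rik is on the list as Oip5os1 and so is not in these counts. NORAD is on the list both as Norad and as 2900097C17Rik, of which only the latter was matched. Xist, the RNA that silences an X chromosome, had 6 counts in replicate 1 and 1 in replicate 2 (0.01 and 0.00 TPM). These values are low for tissue described as pooled from males and females, and the sex of the tissue was not tested. The imprinted H19 had 34 counts in replicate 1 and 12 in replicate 2, at 0.50 and 0.77 TPM, so its scaled counts (2.43-fold higher in replicate 1, 95% interval 1.23 to 5.15) and its TPM had opposite orders. Carmn, a lincRNA of smooth muscle that hosts miR-143 and miR-145, had 5.0 and 1.54 TPM, beside smooth muscle markers of which 2 of 6 were called higher in replicate 1. Jpx (2.32 and 1.28 TPM) and Lncpint (2.36 and 1.11 TPM) missed the limit in replicate 2 only. Of the 38 names with enough counts 7 were called higher in replicate 1 and 1 in replicate 2, in a background of 9.36% and 8.85% of all genes tested.

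The genes that process such RNAs were looked up as a further list. All 36 factors on the list were tested, with a median log2 ratio of 0.13, and 2 were called higher in replicate 1 against 0 in replicate 2, in a background of 9.36% and 8.85% of all genes tested. The exceptions were Cpsf2, of the complex that reads the AATAAA signal, at 1.5 TPM in replicate 1 against 0.40 TPM in replicate 2 (3.38-fold, 95% interval 2.63 to 4.37), and Nop58, a core protein of snoRNA particles, at 11.2 and 3.18 TPM (2.79-fold, 95% interval 2.16 to 3.63). Of the snoRNA particle list 1 of 7 was called, of cleavage and polyadenylation 1 of 12, and of the nuclear exosome and its adaptors, of Integrator and early termination, and of nonsense-mediated decay 0 of 8, 0 of 4 and 0 of 5.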

How the data were processed

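Polyadenylated RNA of duodenum was read in 2 libraries, replicates 1 and 2 of the labels. The build was mm10 and the gene models GENCODE M4, per the text files beside the tables, and the sources used here name no aligner or quantifier. The authors deposited expected counts for each gene, which need not be whole because reads with several possible origins are shared out, per the file headers. The TPM values they deposited are levels per transcript length set to 1 library total, per the file headers. Isoform percent, also deposited, is a transcript's share of its gene's TPM, per the file headers. The deposited TPM bounds, a score here, entered no result.

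Types, positions and transcripts came from GENCODE M21 (42462 of 43346 gene rows had a symbol), and promoters, miRNAs and further types from RefSeq (GRCm38.p6). Expected counts were rounded. TMM scaling (edgeR 4.0.16, R 4.3.3) used genes whose counts averaged 10 or more, which all 39 members did. Log2 ratios are replicate 1 over replicate 2 of scaled CPM plus 0.5, and a gene is called at 2-fold. Fold changes have no such addition, and their 95% Clopper-Pearson intervals cover counting error only. A count of 0 allows 0.0678 CPM in replicate 1 and 0.0671 CPM in replicate 2. Copies were searched with BLAST+ 2.17.0 at 95% identity, among GENCODE M21 transcripts in the same orientation only. The scaling was tested on simulated data. DESeq2 1.42.0, Python 3.11.15, pandas 2.3.3 and matplotlib 3.10.9 were also used.

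Named genes are the 12 members of highest mean TPM, called members, members on the list of well-studied RNAs, hosts of small RNAs, the 3 members nearest the limit and the 3 lincRNAs just outside it, with neighbours within 5 kb. Abca1 and Rtl1, the nearest coding genes of the called members AI427809 and Meg3, lie beyond 5 kb and were named outside this rule. Other members were named after their values were seen. The members and lists were chosen with earlier results of these data known. Alternatives were other scalings, limits, priors and estimates. The values of 1 neighbouring pair are not reported here.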

Additional observations from a re-analysis of the deposited data

How the results depend on the processing

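The number of members was 61 with a TPM limit of 1 and 22 with a limit of 5, was 42 with posterior mean TPM, and ran from 43 to 57 when 1 replicate was left out. The 2 calls towards replicate 1 stayed 2 under each other scaling, prior and estimate and became 4 at 1.5-fold. The single call towards replicate 2 became 3 with DESeq2 size factors (1810058I24Rik and 4632415L05Rik added), 2 as a TPM ratio (Gm42743 added), 2 with a prior of 0.05 CPM (4632415L05Rik added) and 11 at 1.5-fold. The median log2 ratio of −0.14 ran from −0.18 to 0.06, and was above 0 with ERCC scaling (0.06) and, in a choice made after seeing the data, without the 7 members of another RefSeq type or with a copy (0.03). ERCC scaling, which turns the sign of the members' median, also moved the median of all genes tested, to 0.24 in place of 0.04. The polyadenylation signal was found in 22 members with AATAAA alone in place of 29, and in 24 without those 7. A coding gene lay within 2000 bases of 20 members in place of 26 within 5 kb, and 17 members in place of 16 kept their leading transcript by posterior means. No ratio can be given without 1 of the replicates. No paired analysis was possible because there is only 1 group. Depth limits members such as Mir142hg and Gm5914, which have 20 counts or fewer in each library.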
